A study of Brassica rapa with 12 samples.

Results

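A set of 101 *Brassica rapa* genes was read almost entirely from light-grown seedlings of a single line, Chiifu. The genes were chosen on these same data from 41018 features whose IDs start with Bra. A gene entered the set when its mean over the 3 Chiifu Light libraries was at least 5 CPM, the count scaled to a library total of 1000000, and its mean in each of the other 3 groups was at most 1/10 of that. The choice used the level in all 4 groups, so the height of Chiifu Light over the others is a description here and carries no test. Of the 18504 Bra IDs at 5 CPM or more in Chiifu Light, the 101 genes were 0.546%.

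RNA was read from 1-week-old whole seedlings in 12 libraries, 3 for each group. Seedlings of the Chiifu Light and LP08 Light groups were kept under a daily cycle of 16 h light, 8 h dark, and those of LP08 Dark and Chiifu Dark in 24 h dark. Chiifu is a line of Chinese cabbage. The series title contrasts vegetable and oilseed types without saying which type LP08 is, and no mutation, transgene or agent is given for any group. The labels do not say how many seedlings went into a library, nor whether darkness lasted the whole week.

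A seedling that sees light changes its form. It opens and greens its seed leaves, stops stretching its stem, builds chloroplasts and sunscreen pigments, and switches on many genes through phytochrome and cryptochrome photoreceptors and the transcription factors they release. Lines of a crop species can differ in which gene copies answer to light, because *Brassica rapa* carries duplicated relatives of many Arabidopsis genes. A transcript that is abundant in 1 group and scarce in the others can come from a gene that is switched on there or from a cell type, organ or state that is commoner there. In RNA from whole seedlings, fewer cells of a type and less RNA per cell cannot be told apart.

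The files give IDs without gene names, and none of the 101 IDs was found in the RefSeq gene table of the species, so the genes are described by ID and by their values. Library totals ran from 68798180 to 71764062 counts in Chiifu Light, 55018405 to 62062053 in LP08 Light, 48773088 to 54724734 in LP08 Dark and 48970199 to 60338040 in Chiifu Dark. Chiifu Light was thus the deepest group, and a count of 0 in a single library allows up to 0.0418 to 0.0615 CPM. Such limits cover counting error alone. Markers of tissues, organs or wounding could not be joined to the IDs. The labels do not say that the replicates of a group were grown separately, and p-values then refer to library-to-library spread, part of which may be technical.

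Chiifu Light replicate 2 stood apart for many of these genes. It was the highest of its group for 66 of the 101 genes, while replicate 1 was the highest for 25 and replicate 3 for 10. Over all 18504 Bra IDs at the level, replicate 2 was the highest for 47.8%. The 101 genes held 0.499%, 0.842% and 0.486% of the counts in Chiifu Light replicates 1, 2 and 3, a mean of 0.609 ± 0.202% (SD, n = 3). Without replicate 2 the mean share of the same 101 genes was 0.492%. The rule applied again without replicate 2 found 80 genes, of which 78 belong to the 101.

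The 4 groups held very different shares of counts in these genes. The shares were 0.0145%, 0.0129% and 0.00759% in LP08 Light, 0.00252%, 0.00835% and 0.00354% in LP08 Dark, and 0.0244%, 0.0171% and 0.0174% in Chiifu Dark. Each Chiifu Light library lay above every other library for the sum and for all 101 genes singly. Of all 31239 features tested, 14.0% had every Chiifu Light library above the other 9, but the rule itself nearly fixes this order for the set. Replicate 3 was the low library in LP08 Light, and replicate 2 the high library in LP08 Dark.

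**Figure D1:**
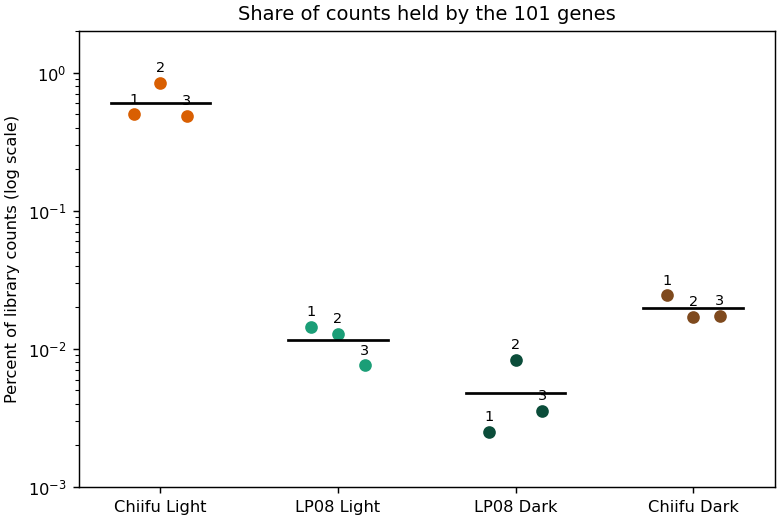
Percent of each library's counts held by the 101 genes (log scale), by group, with the replicate number at each point and a line at the group mean. The 3 Chiifu Light libraries hold 0.486% to 0.842%, and no library of the other groups exceeds 0.0244%.

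The level of the genes in Chiifu Light spanned a wide range. Mean levels ran from 5.01 to 940.4 CPM with a median of 14.8 CPM, and 35 genes were under 10 CPM, 44 between 10 and 50, 11 between 50 and 100, and 11 at 100 CPM or more. The 4 most abundant genes made up 48.3% of the summed level. Against the next highest group, the fold ran from 10.3 to 1641 with a median of 21.7. It was under 20 for 48 genes and at least 100 for 12.

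The label "only in light-grown Chiifu" holds as a ratio rather than as absence elsewhere. Of the 101 genes, 23 had a mean of 1 CPM or more in LP08 Light, 9 in LP08 Dark and 23 in Chiifu Dark. No gene was without reads in all 9 of the other libraries, and 3 had no read in the 6 LP08 libraries. The median level was 0.325 CPM in LP08 Light, 0.0879 CPM in LP08 Dark and 0.350 CPM in Chiifu Dark. The next highest group was LP08 Light for 38 genes, LP08 Dark for 8 and Chiifu Dark for 55.

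**Figure D2:**
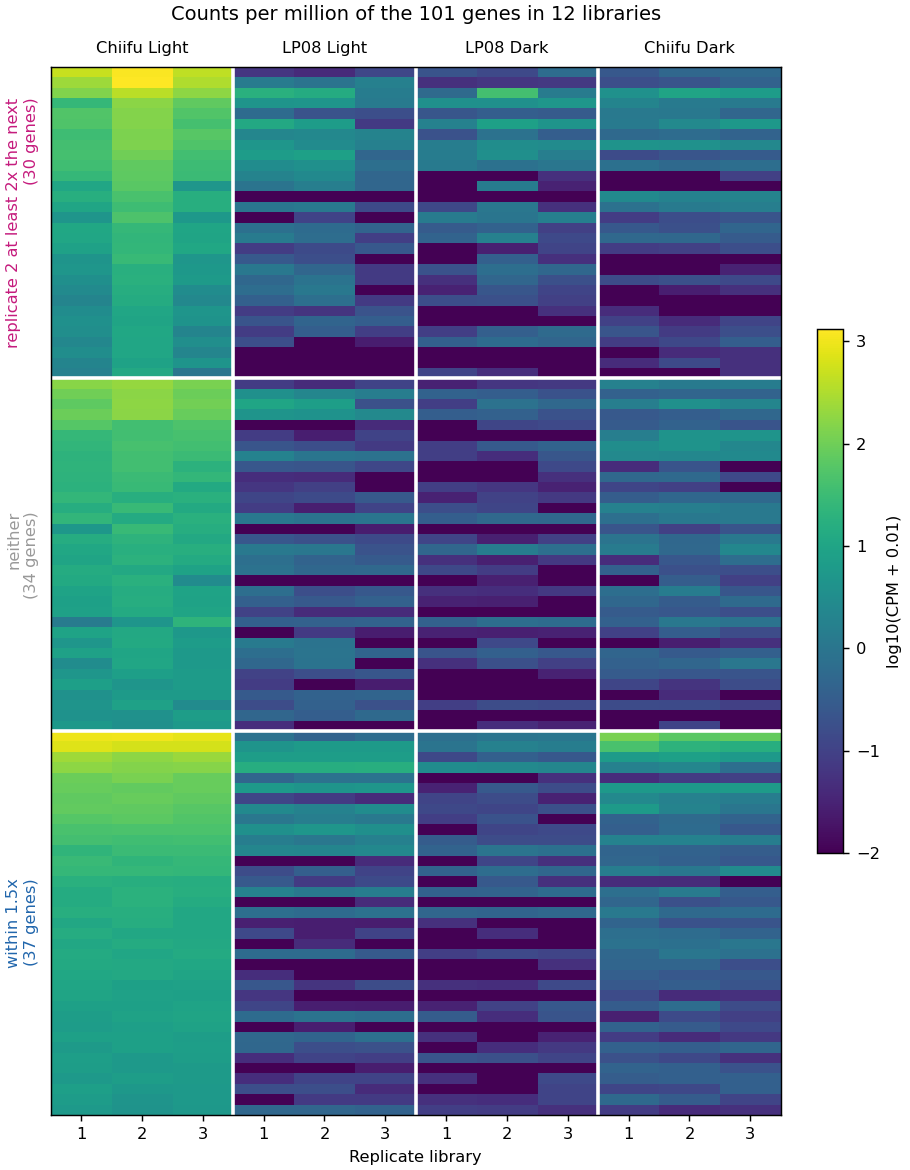
Level of each of the 101 genes (rows) in the 12 libraries (columns, by group), coloured as log10(CPM + 0.01). Rows are split by how far the 3 Chiifu Light libraries differ, with 30 genes led by replicate 2, 37 genes within 1.5 times and 34 genes in neither class, and run from high to low mean within a block. The upper block has its brightest column at Chiifu Light replicate 2.

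The 2 most abundant genes had opposite kinds of spread. Bra039597 was at 952, 1023 and 846 CPM in Chiifu Light. It was at 0.854, 0.425 and 0.677 CPM in LP08 Light, 0.729, 0.932 and 1.03 CPM in LP08 Dark, and 121, 65.3 and 81.4 CPM in Chiifu Dark. This gene was thus high in both Chiifu groups, with a mean 10.5 times higher in Chiifu Light than in Chiifu Dark, and near 1 CPM or less in every LP08 library. Bra001086 was at 479, 1254 and 419 CPM in Chiifu Light, with replicate 2 far above the others. It was at 0.0545, 0.0327 and 0.113 CPM in LP08 Light, 0.203, 0.128 and 0.636 CPM in LP08 Dark, and 0.247, 0.514 and 0.551 CPM in Chiifu Dark. Its mean of 718 ± 466 CPM (SD, n = 3) was 1641 times that of Chiifu Dark, the largest fold of the set.

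Among genes whose next highest group was LP08 Light, Bra013123 and Bra031181 had the highest levels. Bra013123 was at 230, 1314 and 319 CPM in Chiifu Light, again highest in replicate 2. It was at 1.31, 0.900 and 1.66 CPM in LP08 Light, 0.0405, 0.0548 and 0.0615 CPM in LP08 Dark, and 0.159, 0.199 and 0.388 CPM in Chiifu Dark. Bra031181 was at 240, 175 and 227 CPM in Chiifu Light. It held a narrow range of 7.03 to 7.10 CPM in LP08 Light and 5.72 to 8.05 CPM in Chiifu Dark, and lay at 0.122, 0.365 and 0.246 CPM in LP08 Dark. Both genes kept the order of light over dark in LP08, at a much lower level.

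Among genes whose next highest group was LP08 Dark, Bra039120 and Bra014037 had the highest levels. Bra039120 was at 138, 386 and 180 CPM in Chiifu Light, and it was uneven in LP08 too. It had 17.6, 14.4 and 1.40 CPM in LP08 Light, 0.567, 38.2 and 1.33 CPM in LP08 Dark, and 3.79, 9.75 and 6.70 CPM in Chiifu Dark. A single library, LP08 Dark replicate 2, set its LP08 Dark mean of 13.4 CPM. Bra014037 was at 26.2, 168 and 75.1 CPM in Chiifu Light, 4.53, 4.68 and 1.27 CPM in LP08 Light, 3.69, 3.71 and 4.94 CPM in LP08 Dark, and 2.03, 1.24 and 1.27 CPM in Chiifu Dark.

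The 3 genes with no read in any LP08 library were Bra031046, Bra004819 and Bra009304. Bra031046 had 15.9, 44.1 and 15.9 CPM in Chiifu Light and 2.68, 1.84 and 1.90 CPM in Chiifu Dark. Bra004819 had 3.27, 10.6 and 2.11 CPM in Chiifu Light and 4 reads in all in Chiifu Dark. Bra009304 had 2.06, 8.90 and 4.44 CPM in Chiifu Light and 12 reads in Chiifu Dark. No read over the 6 LP08 libraries allows up to 0.00906 CPM. All 3 had their highest value in Chiifu Light replicate 2, whereas Bra017112, with no read in LP08 Dark and 11 in LP08 Light, was at 26.1, 36.8 and 43.0 CPM in Chiifu Light. A further 23 genes had 1 to 20 reads over the 6 LP08 libraries.

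Another 4 genes had no read in Chiifu Dark, which allows up to 0.0181 CPM there. They were Bra003696, Bra025723, Bra014675 and Bra038955. Bra038955 was at 4.12, 3.81 and 7.12 CPM in Chiifu Light and 0.473, 0.327 and 0.564 CPM in LP08 Light, with no read in LP08 Dark. It was therefore read in light in both lines and in neither dark group. The other 3 were highest in Chiifu Light replicate 2, at 65.6 CPM for Bra003696, 27.8 CPM for Bra025723 and 14.1 CPM for Bra014675.

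**Figure D3:**
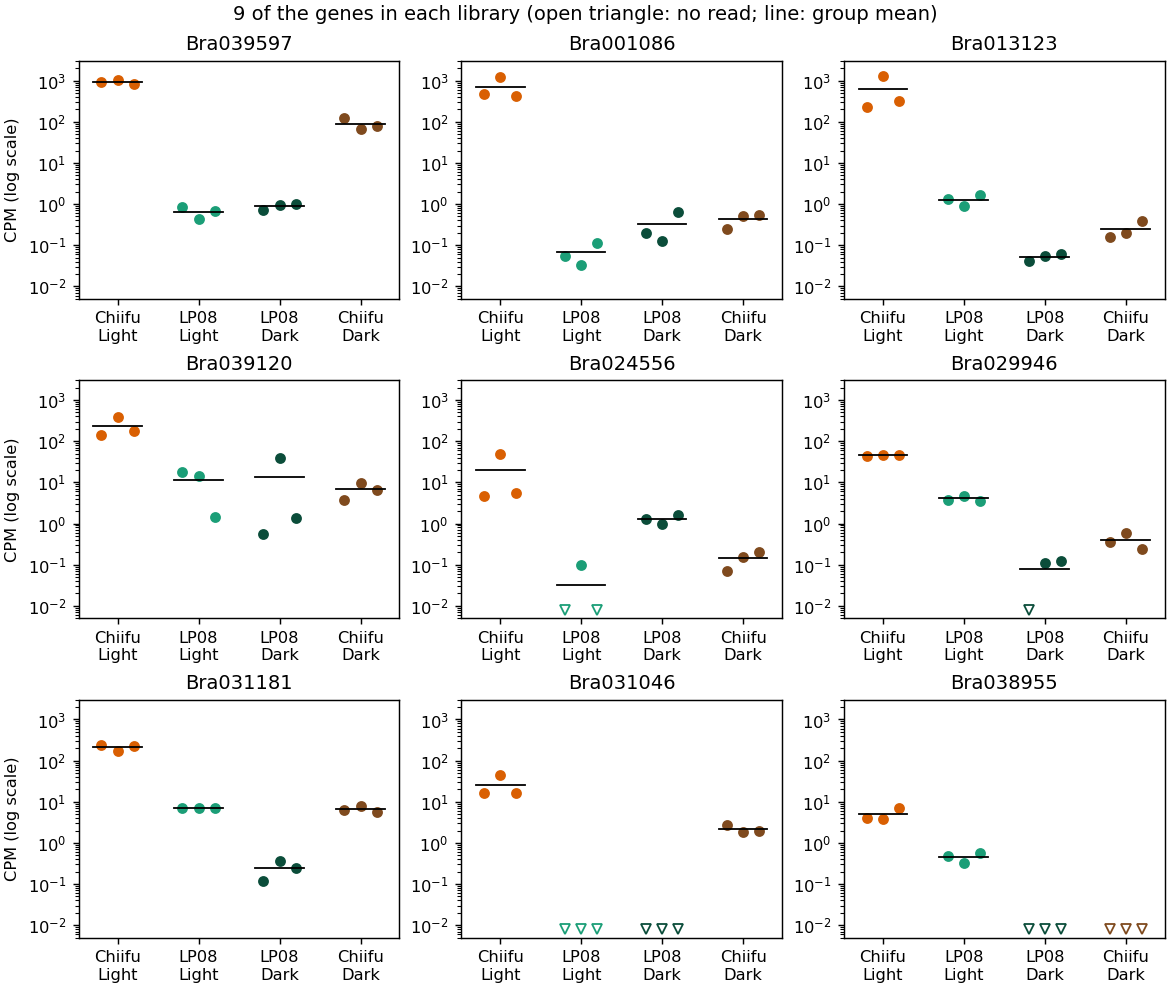
Level of 9 of the genes in each library (CPM, log scale) by group, with a line at the group mean and an open triangle for a library without a read. Bra039597, Bra029946 and Bra031181 have tight points in Chiifu Light, while the second point of Bra001086, Bra013123, Bra039120, Bra024556 and Bra031046 stands above the others.

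At the edges of the rule the values passed smoothly. Bra014587, just inside the level, had a mean of 5.01 CPM in Chiifu Light, and Bra038065, just outside it, had 4.95 CPM. Bra021163 was just inside the ratio, with 159 CPM in Chiifu Light against 15.5 CPM in LP08 Light, a 10.3-fold difference of means. Bra008650, just outside it, had 7.52 CPM in Chiifu Light and 0.754 CPM in Chiifu Dark, a 9.98-fold difference.

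The genes fell into kinds by how much the Chiifu Light libraries differed, and these kinds were defined after the values had been seen. In 30 genes, Chiifu Light replicate 2 was at least 2 times the next library, in 37 genes the 3 libraries lay within 1.5 times of each other, and 34 genes met neither condition. The most uneven were Bra024556, at 4.67, 49.2 and 5.42 CPM in Chiifu Light, and Bra000889, at 1.73, 12.5 and 1.04 CPM. Replicate 2 held 83.0% and 81.9% of their summed level. The most even were Bra029946, at 44.9, 46.5 and 45.8 CPM, and Bra000019, at 25.7, 25.4 and 24.0 CPM, with coefficients of variation of 1.71% and 3.51%. Bra015388 was the 1 gene led by at least 2 times by another library, at 1.32, 4.71 and 21.5 CPM, and its lowest Chiifu Light library was 1.19 times its highest library elsewhere.

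Uneven genes were commoner in the set than among Bra IDs at the same level, as a description. The highest Chiifu Light library was at least 2 times the next for 30.7% of the 101 genes and for 0.827% of the 18504 Bra IDs. The 3 libraries lay within 1.5 times for 36.6% of the set and 89.8% of the Bra IDs. The median coefficient of variation was 27.4% in the set and 8.58% over the Bra IDs. When the same rule was turned to the other groups, it found 49 genes for LP08 Light, 50 for LP08 Dark and 59 for Chiifu Dark. A single library was at least 2 times the next for 0 of the 49 LP08 Light genes, 6 of the 50 LP08 Dark genes and 6 of the 59 Chiifu Dark genes. The median coefficient of variation was 9.30%, 16.0% and 30.8% in these sets, and 93.9%, 70.0% and 32.2% of their genes lay within 1.5 times. By these 2 measures the Chiifu Dark set was at least as uneven as the 101 genes. Over all Bra IDs at 5 CPM or more in Chiifu Dark, the values were 17.4% and 60.0%. A rule on means can let in a gene through 1 high library, so these shares describe the sets as chosen.

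In level, the evenly read genes made up the larger part of the set except in replicate 2. The 30 genes led by replicate 2 summed to 1262, 4357 and 1418 CPM in Chiifu Light replicates 1, 2 and 3. The 37 even genes summed to 2894, 2785 and 2595 CPM in the same libraries. Each of these groups therefore held a gene near the top of the set, Bra001086 for the first and Bra039597 for the second. In Chiifu Dark the 30 genes summed to 19.3, 25.3 and 24.1 CPM and the 37 even genes to 203, 119 and 125 CPM, most of it from Bra039597.

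The LP08 libraries, which did not enter the split, differed between these kinds of genes. The 30 genes led by replicate 2 in Chiifu Light summed to 62.6, 55.0 and 12.1 CPM in LP08 Light replicates 1, 2 and 3, so LP08 Light replicate 3 was low. The 37 even genes summed to 51.7, 50.7 and 52.9 CPM in those libraries. Among genes with at least 30 reads over the LP08 Light libraries, replicate 3 was at most 0.5 times the mean of replicates 1 and 2 in 15 of 19 genes led by replicate 2 in Chiifu Light, in 6 of 20 genes of neither kind and in 2 of 19 even genes. The share over all 27983 Bra IDs with as many reads was 7.09%. Clear cases were Bra015307, at 6.83, 8.07 and 0.483 CPM in LP08 Light, and Bra021828, at 12.05, 6.64 and 0.0645 CPM. Bra013123 was an exception, with its highest LP08 Light value in replicate 3.

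Across the 58 genes with at least 30 reads in LP08 Light, the ratio of Chiifu Light replicate 2 to replicates 1 and 3 and the ratio of LP08 Light replicate 3 to replicates 1 and 2 had a Spearman's rho of -0.64 and a Pearson's r of -0.46. The points are genes that share the same 6 libraries, so this is a description of those libraries. The relation was not particular to the set. Over 18251 Bra IDs at 5 CPM or more in Chiifu Light with as many reads, rho was -0.35. Of the 125 Bra IDs at that level that were led by Chiifu Light replicate 2, the 30 genes here included, 111 had at least 30 reads in LP08 Light, and in 72.1% of these LP08 Light replicate 3 was at most 0.5 times the others.

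**Figure D4:**
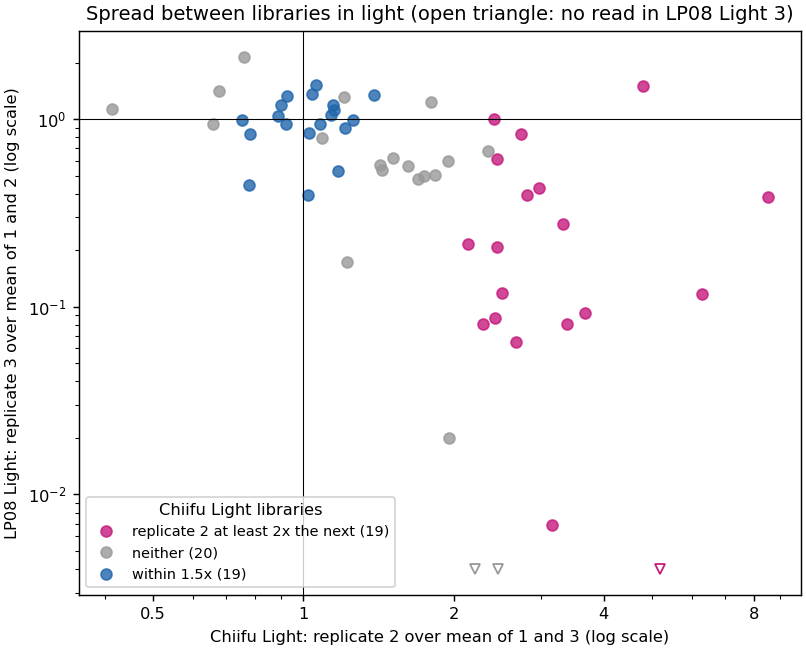
For the 58 genes with at least 30 reads in LP08 Light, the ratio of Chiifu Light replicate 2 to the mean of replicates 1 and 3 (horizontal, log scale) against the ratio of LP08 Light replicate 3 to the mean of replicates 1 and 2 (vertical, log scale). Even genes lie around 1 on both axes, most genes led by Chiifu Light replicate 2 lie below 1 on the vertical axis, and 3 genes without a read in LP08 Light replicate 3 are drawn as open triangles.

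In LP08 Dark, replicate 2 held the highest sum of the genes led by Chiifu Light replicate 2. The 30 genes led by Chiifu Light replicate 2 summed to 13.9, 67.5 and 21.5 CPM in LP08 Dark, and to 13.3, 29.3 and 20.2 CPM without Bra039120. Among genes with at least 30 reads in LP08 Dark, replicate 2 was at least 2 times the mean of the others in 10 of 18 genes led by Chiifu Light replicate 2, in 2 of 8 genes of neither kind and in 0 of 9 even genes, against 2.90% of all Bra IDs with as many reads. Over all Bra IDs at 5 CPM or more that were led by Chiifu Light replicate 2, it was so in 38 of 110. Across the 35 genes of the set with as many reads, the Chiifu Light and LP08 Dark ratios of replicate 2 had a Spearman's rho of 0.23, a weak relation among points that share the same libraries. Bra003696 was extreme, at 0, 1.43 and 0.0205 CPM in LP08 Dark. What the libraries concerned share was not tested.

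The first tested question was whether light raised these genes in LP08, the line in which they were low. All 101 genes passed the filter on low counts, for which their level in Chiifu Light was enough. In LP08 Light against LP08 Dark, 43 of the 101 genes rose and 3 fell at an adjusted p under 0.05 in edgeR's quasi-likelihood test, against 33.1% of all 31239 features higher and 35.4% lower. With the LP08 Light and LP08 Dark libraries alone in the filter and the fit, 53 of the 101 genes had enough counts to be tested. Of these 53 genes, 32 rose and 2 fell, against 37.4% of 28855 features higher and 37.9% lower. The other 48 genes had entered the test through libraries outside this comparison. The median log2 fold change of the 101 genes was 1.67, and 1.51 over 87 genes when a group without reads was set to 3 reads over the group and genes with 3 reads or fewer in each group were left out. The median of all features was -0.04. The rule had capped LP08 Light and LP08 Dark each at 1/10 of Chiifu Light but had not compared them with each other. The 43 genes that rose had a median level of 0.707 CPM in LP08 Light and 0.0776 CPM in LP08 Dark. Of the 55 genes that were not called, 28 had fewer than 30 reads over the 6 LP08 libraries. The 3 genes lower in LP08 Light became 5 without LP08 Dark replicate 1, and limma-voom called 0, with 2 at an unadjusted p under 0.05.

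Among the genes that rose in LP08 Light, the largest fitted changes belonged to Bra038955 and Bra015409. Bra038955, given above, had 81 reads in LP08 Light and none in LP08 Dark, so its level was at least 23.2-fold higher in LP08 Light (edgeR adjusted p = 8.57e-05). Bra015409 was at 0.273, 0.393 and 0.435 CPM in LP08 Light and had no read in LP08 Dark, at least 18.7-fold higher (edgeR adjusted p = 4.26e-05). Both bounds take 3 reads over the LP08 Dark group as its limit and the LP08 Light mean as exact. In Chiifu Light the level of Bra015409 was 3.92, 6.06 and 6.14 CPM, so the LP08 Light level was 14.6 times lower than that of Chiifu Light.

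More abundant genes rose as well. Bra031181 had a log2 fold change of 5.02 (SE 0.276, edgeR adjusted p = 2.27e-08) and Bra029946 one of 5.85 (SE 0.431, edgeR adjusted p = 1.99e-07). Bra029946 was at 3.78, 4.78 and 3.61 CPM in LP08 Light and 0, 0.110 and 0.123 CPM in LP08 Dark. The LP08 Light and LP08 Dark libraries did not overlap in 39 of the 43 genes that rose, against 93.2% of all features that rose, so this share was near the background. Among the 38 of these 43 genes with reads in both dark groups, the median ratio of light to dark means was 8.00 in LP08 and 47.3 in Chiifu, where the second value was part of the rule.

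The 3 genes that fell in LP08 Light were Bra024556, Bra026235 and Bra000019. Bra024556 was at 0, 0.0982 and 0 CPM in LP08 Light and 1.32, 0.987 and 1.64 CPM in LP08 Dark, with a log2 fold change of -5.02 (SE 1.35, edgeR adjusted p = 0.00645). It was thus highest in light in Chiifu and higher in dark than in light in LP08. All its LP08 Light reads were in replicate 2. Without that library the fitted change was -9.25, and over the alternatives the adjusted p ran from 0.000118 to 0.125, the last from limma-voom. Bra026235 was at 0.164, 0 and 0.0161 CPM in LP08 Light and 0.365, 0.603 and 0.451 CPM in LP08 Dark. Its log2 fold change of -2.82 (SE 0.974, edgeR adjusted p = 0.0218) did not stay under the threshold without LP08 Dark replicate 2 (0.0585), LP08 Light replicate 2 (0.0668) or LP08 Light replicate 3 (0.0697), or with limma-voom (0.0573). Without LP08 Light replicate 1, which held most of its LP08 Light reads, the fitted change was -5.37. Bra000019 was at 0.145, 0.344 and 0.0967 CPM in LP08 Light and 0.425, 0.658 and 0.513 CPM in LP08 Dark, with groups that did not overlap (log2 fold change -1.24, SE 0.487, edgeR adjusted p = 0.0379). Its call ended without LP08 Dark replicate 2 (0.120) or replicate 3 (0.0669), without LP08 Light replicate 1 (0.111) or replicate 3 (0.133), with the replicate block (0.0557), with limma-voom (0.0639) and with the LP08 libraries fitted alone (0.0582). Without LP08 Light replicate 2 its fitted change was -1.93.

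The second tested question was whether the lines already differed in these genes in the dark. Whether reads of LP08 and Chiifu map equally well to these IDs was not tested, and the build and annotation are not given. A difference between the lines is therefore a difference in counted reads. In LP08 Dark against Chiifu Dark, 47 of the 101 genes were lower and 5 were higher at an adjusted p under 0.05 in edgeR's quasi-likelihood test, against 27.9% of all features lower and 25.4% higher. With the LP08 Dark and Chiifu Dark libraries alone in the filter and the fit, 58 of the 101 genes were tested. Of these 58 genes, 33 were lower and 3 higher, against 25.2% of 29296 features lower and 21.4% higher. The other 43 genes had entered through the light libraries. The median log2 fold change was -1.90 over the set and -1.82 over 98 genes with groups without reads set to their limit, while the median of all features was 0.00. LP08 Dark and Chiifu Dark had likewise each been capped by the rule and not compared with each other. The 47 lower genes had a median level of 0.0502 CPM in LP08 Dark and 0.455 CPM in Chiifu Dark. LP08 Dark and Chiifu Dark did not overlap in 45 of the 47 lower genes, against 94.8% of all features that were lower, which is again near the background. The 5 higher genes became 8 without Chiifu Light replicate 2 and with the DESeq2 Wald test, 3 without Chiifu Dark replicate 2 or replicate 3, and 2 with limma-voom.

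Bra039597 was the most abundant gene lower in LP08 Dark, with a log2 fold change of -6.55 (SE 0.315, edgeR adjusted p = 2.01e-08). Bra017112 had no read in LP08 Dark and 1.55, 4.18 and 4.35 CPM in Chiifu Dark, at least 171-fold lower in LP08 Dark (edgeR adjusted p = 1.44e-05). Bra031046 had no read in LP08 Dark and was at least 109-fold lower there than in Chiifu Dark (edgeR adjusted p = 0.000144). These are the 2 largest fitted decreases, and 12 of the 47 lower genes had no read in LP08 Dark.

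The genes higher in LP08 Dark were Bra019369, Bra015307, Bra024556, Bra001684 and Bra021163. Bra019369 was at 0.182, 0.694 and 0.492 CPM in LP08 Dark and had 1 read in Chiifu Dark (log2 fold change 5.88, SE 1.54, edgeR adjusted p = 0.00722). With the dark libraries alone it had too few counts to be tested, so it entered the test through the light libraries. In the 19 alternatives that tested it the call stayed, with an edgeR adjusted p of 0.00199 to 0.0417 over left-out libraries. Bra015307 was at 1.40, 3.53 and 1.56 CPM in LP08 Dark and 0.141, 0.215 and 0.286 CPM in Chiifu Dark (log2 fold change 3.43, SE 0.987, edgeR adjusted p = 0.0132). Its call ended without Chiifu Dark replicate 2 (0.0549) or replicate 3 (0.0552) and with limma-voom (0.158). These 2 and Bra024556 are among the genes led by Chiifu Light replicate 2. The even genes Bra021163 and Bra001684 differed less. Bra021163 had a log2 fold change of 0.82 (edgeR adjusted p = 0.0263) and Bra001684 one of 0.97 (edgeR adjusted p = 0.0107), and in both the groups overlapped. The call of Bra021163 ended without LP08 Dark replicate 1 (0.0885) or replicate 2 (0.0518), with unscaled library totals (0.0598) and with the dark libraries fitted alone (0.129), and its fitted change was 0.50 without Chiifu Dark replicate 3. That of Bra001684 ended without LP08 Dark replicate 2 (0.0592), with limma-voom (0.0954) and with the dark libraries fitted alone (0.0964). That of Bra024556 ended without any 1 of the Chiifu Dark libraries (0.0766 to 0.0826), without LP08 Dark replicate 3 (0.0578) and with limma-voom (0.239). Bra021163 was at 3.10, 2.52 and 2.23 CPM in LP08 Dark and 1.80, 2.24 and 0.694 CPM in Chiifu Dark, and Bra001684 at 0.425, 0.932 and 0.759 CPM in LP08 Dark and 0.440, 0.398 and 0.306 CPM in Chiifu Dark.

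**Figure D5:**
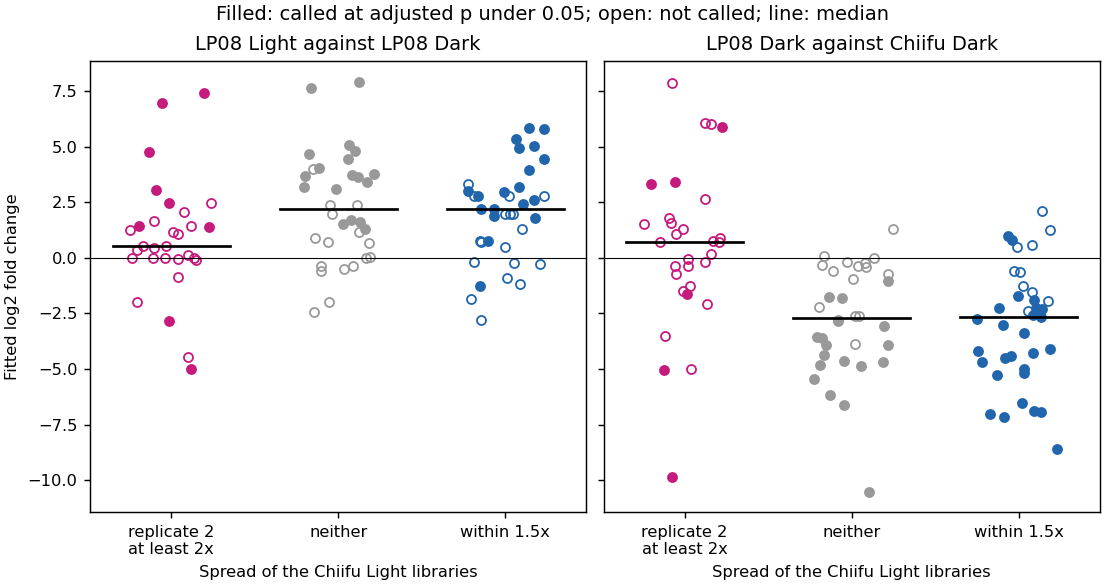
Fitted log2 fold change of the 101 genes in LP08 Light against LP08 Dark (left) and LP08 Dark against Chiifu Dark (right), by the spread of the Chiifu Light libraries, with filled points for genes called at an adjusted p under 0.05, open points for others and a line at the median. Medians of the 30 genes led by replicate 2 are 0.53 and 0.72, and those of the 37 even genes 2.20 and -2.66. The 34 genes in neither class have medians of 2.18 and -2.71. Genes that entered a test only through libraries outside the comparison are included.

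These kinds of genes were called at different rates, which was not tested. The spread of each gene was estimated over all 12 libraries, Chiifu Light included. The wide Chiifu Light spread that defines the genes led by replicate 2 therefore enters their tests. How far this changed their calls was not tested. Because that spread enters the tests, the rates do not compare the kinds on equal terms. In LP08 Light against LP08 Dark, 7 of the 30 genes led by Chiifu Light replicate 2 rose and 2 fell, and 18 of the 37 even genes rose and 1 fell, with 33.1% of all features higher and 35.4% lower. In LP08 Dark against Chiifu Dark, 3 of the 30 were lower and 3 higher, and 25 of the 37 even genes were lower and 2 higher, with 27.9% of all features lower and 25.4% higher. Of the 34 genes of neither kind, 18 rose and 0 fell in LP08 Light, and 19 were lower and 0 higher in LP08 Dark than in Chiifu Dark. The 2 comparisons share the LP08 Dark libraries. These counts, and those that follow, include genes that entered a test only through libraries outside the comparison. With only the 2 groups in the filter and the fit, 53 genes of the set were tested for LP08 Light against LP08 Dark. For LP08 Dark against Chiifu Dark, 58 were tested. The counts by kind and by pair of calls were not repeated on those genes alone. The shares of all features are therefore not an equal background for these counts. Side by side, 22 genes were higher in LP08 Light than in LP08 Dark and lower in LP08 Dark than in Chiifu Dark, against 12.3% of all features. Another 29 genes were called in neither comparison, as were 4688 of the 31239 features. Of the 29 genes, 17 were led by Chiifu Light replicate 2 and 6 had fewer than 30 reads over the 9 libraries outside Chiifu Light.

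Some of the 101 genes carried consecutive ID numbers, 9 IDs in 5 pairs. Bra037112 was at 93.5, 172 and 83.7 CPM and Bra037113 at 103, 170 and 91.0 CPM in Chiifu Light. In LP08 Light they were at 4.40, 4.04 and 2.51 CPM and at 3.73, 2.22 and 1.48 CPM. Their profiles were close to each other in every group. Bra032485 and Bra032486 were both even, at 12.7, 12.2 and 11.4 CPM and at 7.15, 5.86 and 6.04 CPM in Chiifu Light, with 2 and 1 reads over all LP08 libraries. Bra014674 and Bra014675 were both led by replicate 2. In the run of Bra025883, Bra025884 and Bra025885, replicate 2 was the highest for all 3, with means of 10.6, 16.3 and 6.55 CPM. These examples were chosen after their values were seen, the positions of the genes were not used here, and it could not be checked whether paired IDs share reads. The sets found by the same rule had 0 such pairs for LP08 Light, 2 for LP08 Dark and 2 for Chiifu Dark. These sets are smaller, and the share of IDs in pairs was 8.91% here, 0% for LP08 Light, 8.00% for LP08 Dark and 6.78% for Chiifu Dark.

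The 1168 ENSRNA features, the Ensembl prefix for non-coding RNA genes, added nothing to this pattern. Of the 33 ENSRNA features at 5 CPM or more in Chiifu Light, 0 met the ratio.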

How the data were processed

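The values are read counts per feature, 1 table per library, deposited by the authors as whole numbers without normalization. Per the submitters' processing notes, the tools were FastQC, TopHat2, edgeR and featureCounts, with no version, and libraries were made with a stranded mRNA kit per the labels. Build, annotation and strand setting: not given in the sources used here. Of 42186 IDs, 1 was found in the RefSeq table of assembly CAAS_Brap_v3.01, and none of the 101. No list of genes could therefore be joined.

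CPM uses the column total. Counts were fitted in R 4.3.3 with edgeR 4.0.16: filterByExpr by group (minimum count 10, minimum total 15) left 31239 features, scaling was by TMM, 1 mean per group was fitted over all 12 libraries, and robust quasi-likelihood tests were adjusted by Benjamini-Hochberg over all features. Standard errors (SE) were derived from the fold change and its F. Contrasts with Chiifu Light were not tested, since the rule used them. The procedure was tested on simulated data. IDs were named by fixed properties, at most 2 for each (highest level, most and least even, no LP08 reads, next highest group, largest called changes), and others were named after their values were seen. The set, its rule and the tests were chosen with earlier results of these data known.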

Additional observations from a re-analysis of the deposited data

How the results depend on the processing

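The size of the set depended on its limits: it was 189 with a floor of 1 CPM, 66 with 10 CPM, 224 with a ratio of 1/5, 53 with 1/20, and 47 when the lowest Chiifu Light library had to be at least 5 CPM and 10 times every other library. It was 97 with TMM-scaled totals, 95 with DESeq2 size factors, 89 with medians and 80 to 120 over left-out libraries. The share of counts held by the 101 genes in Chiifu Light was 0.492% to 0.670% without 1 of its libraries. With every Chiifu Light library above the others, the count of 101 was unchanged with TMM-scaled totals. Leaving out Chiifu Light replicate 2, an alternative added after seeing the data, could not lower this count and so does not check it. In LP08 Light against LP08 Dark, 32 to 47 genes rose over the 20 alternatives (36 to 44 over left-out libraries). The number lower was 0 with limma-voom (2 at an unadjusted p under 0.05) and 2 to 5 over left-out libraries. With the 2 groups filtered and fitted alone, 53 genes were tested and 32 rose. In LP08 Dark against Chiifu Dark, 33 to 52 were lower (42 to 50 over left-out libraries). The number higher was 8 with DESeq2, 2 with limma-voom, 3 with the 2 groups fitted alone and 3 to 8 over left-out libraries. The cause of these shifts was not tested, except that the fit of the 2 dark groups alone tested 58 genes. With the replicate number as a block, 45 genes rose and 2 fell with light in LP08, and 48 were lower and 7 higher in LP08 Dark. Libraries with the same number had deviations that correlated from -0.11 to 0.30, and pairing by number was therefore not assumed. Depth limits the low groups: 32 genes had fewer than 30 reads over LP08 and 24 over the dark libraries.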
